A study of Mus musculus with 15 samples.

Results

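Messenger RNA of cells carrying a short hairpin RNA against TMEM45A was compared with that of cells carrying a control hairpin. The comparison takes 6 of the 15 libraries of the series: the 3 of TMEM45A hairpin set 2, and the 3 of the control hairpin, called NC. The sets are named after the column numbers of the deposited tables, 2 and 4, while the labels number the TMEM45A sets 1 and 2. Columns numbered 2 were taken as the labels' shTMEM45A_2, and the 3 libraries of set 4 (shTMEM45A_1) serve as a second reference, as do the 6 libraries with SHCBP1 hairpins. All groups share 1 label for the cells, MDA-MB-468, a long-established human breast carcinoma line of basal-like type, and no label names a further treatment or the time of harvest for sequencing. Nothing in the sources used here says whether replicates were separate cultures or 1 transduced pool. Their spread may thus be technical, and it is all that the p-values measure. Set 2 stands in another table than NC, so the TMEM45A hairpin and the table cannot be told apart in anything that follows.

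A short hairpin RNA is trimmed in the cell to a small duplex, and the strand kept in the silencing complex pairs with the target messenger RNA and lowers it. TMEM45A encodes a multi-pass membrane protein studied in keratinocytes, in hypoxic cells and in breast cancer. Double-stranded RNA in the cytosol can be read by the sensors RIG-I and MDA5, which act through MAVS and IRF3 to switch on interferon beta and a set of early antiviral genes. Secreted interferon then acts through factors such as STAT2 and IRF9 on a wider set of genes, which is why sensors, factors and targets are described separately below.

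The arms of both designed TMEM45A hairpins are shown because the comparison rests on them. Each arm has 23 bases, written 5′ to 3′, and capitals mark bases 2 to 8 of the antisense arm, the stretch that seeds pairing with other transcripts. The design text does not tie either hairpin to the column numbers, so which of them set 2 carries is not known.
sh-TMEM45A-1 sense arm: ggttaaagtatttgaatttaata
sh-TMEM45A-1 antisense arm: tATTAAATtcaaatactttaacc
sh-TMEM45A-2 sense arm: ggtgtacaaagagtattctgata
sh-TMEM45A-2 antisense arm: tATCAGAAtactctttgtacacc
The seeds of both antisense arms differ from each other, and 4 and 8 of the 23 bases are G or C in the first and the second hairpin.

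Library totals ran from 14123463 to 14400254 counts in NC and from 15620787 to 15891057 in set 2. Genes with at least 1 count numbered 26589 to 26752 in NC and 22507 to 23117 in set 2, although set 2 was the deeper group. Cytosolic ribosomal protein genes took 10.1% to 10.4% of the counts in NC and 19.7% to 20.1% in set 2. Replicates lay closer in NC, where 791 to 848 genes differed more than 2-fold between 2 libraries, than in set 2, where 1956 to 2057 did. The first principal component of all 15 libraries took 75.6% of the variance, and both TMEM45A sets lay on one side of it and NC with the SHCBP1 libraries on the other.

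The labels were checked against the data, which went against them in part. Mouse is the organism in the labels, and mm10 is the build in the submitters' processing notes, while both tables list human gene symbols. KRT5, KRT6A, KRT6B, KRT16 and TP63, which define basal epithelium, had 0 counts in all 6 libraries, and KRT14 had 7 counts in NC and 1 in set 2. Other genes of the basal list were expressed, with FOXC1 at 93.7 CPM, ITGA6 at 18.4 and CAV1 at 11.8 on average in NC. EGFR, which is amplified in MDA-MB-468, stood at 17.5, 16.2 and 15.2 CPM (counts relative to the library's total, scaled between libraries) in NC and at 8.79, 9.65 and 8.79 in set 2. The neurofilament genes NEFM and NEFL averaged 255 and 176 CPM in NC. Of 12 leukocyte markers, 4 had 0 counts in both groups, among them the pan-leukocyte gene PTPRC, and 5 could be tested. The cells are therefore called by their label only.

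TMEM45A, the target, stood at 27.6, 24.2 and 28.1 CPM in the NC libraries and at 19.9, 18.5 and 19.8 CPM in set 2. Every set 2 library lay below every NC library. The fitted log2 change was -0.46 (SE 0.10, edgeR adjusted p = 0.000181). Over all genes tested, the lower and upper quartiles of the log2 change were -0.88 and 0.82, so a change of this size was common. The set 2 level did not differ detectably from that of set 4 (log2 difference 0.12, adjusted p = 0.556). TMEM45B, the paralog, was near the limit of detection in NC (0.902, 0.56 and 0.829 CPM) and rose to 2.69, 1.20 and 2.98 CPM (log2 change 1.57, adjusted p = 0.00249). SHCBP1, which the hairpin was not designed against, rose from 41.3 to 46.3 CPM in NC to 55.3 to 67.4 CPM in set 2 (log2 change 0.44, adjusted p = 3.69e-06).

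Across the 19051 genes tested, 14460 passed an adjusted p of 0.05, or 75.9%. Higher in set 2 were 6880 (36.1%) and lower were 7580 (39.8%). Over 2-fold higher were 3834 genes (20.1%) and over 2-fold lower were 4097 (21.5%). The median log2 change over all genes was -0.04, and scaling by total counts alone moved it to -0.23, with 5769 genes higher and 8714 lower. A call alone therefore says little about any gene, and each gene group below is given with its counts and its median beside these values. The share of all genes whose NC and set 2 libraries do not overlap is not given here. Statements on such overlap thus describe the named genes only. Gene groups differed in direction: 75 of 79 cytosolic ribosomal protein genes rose, whereas 29 of 34 matrix genes fell. As these are bulk samples, fewer cells of a type and less RNA per cell cannot be told apart.

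**Figure D1:**
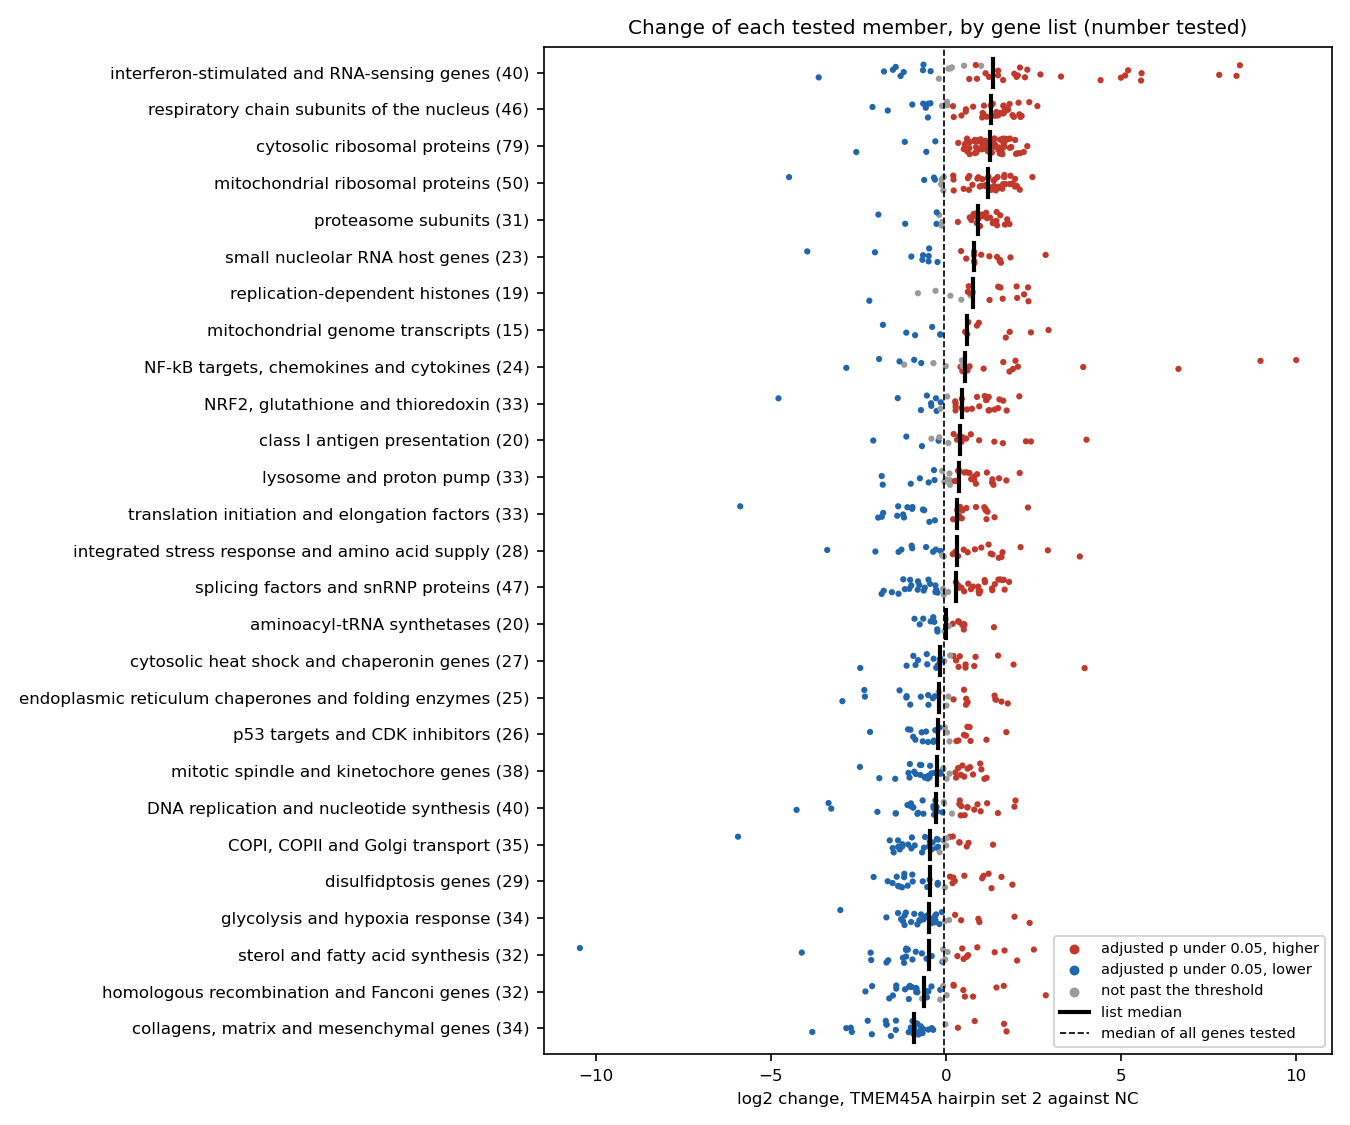
Each dot is the log2 change of 1 tested gene in set 2 against NC (horizontal axis), in the 27 gene lists with at least 15 tested members, ordered by list median (black bar). Red and blue dots passed an adjusted p of 0.05, grey dots did not, and the dashed line is the median of all genes tested; interferon-stimulated genes have the highest list median (1.36) and matrix genes the lowest (-0.91).

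Interferon-stimulated and RNA-sensing genes had the highest median among these lists in the comparison with NC. Of 48 genes on the list, 40 had enough counts to be tested, 25 rose, 9 fell and 6 did not pass, with a median log2 change of 1.36. More than 2-fold higher were 22 and more than 2-fold lower were 6. Genes that rose included IFNB1, IFNL1, IFIH1, DDX58 and ISG15, whereas STAT2 and IRF9 were among those that fell.

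IFNB1, the gene of interferon beta, had 0 counts in every NC library and 2.98, 4.08 and 1.45 CPM in set 2. With the 0 set to 3 counts over the group, the level in set 2 was at least 41.0-fold higher. IFNL1, a type III interferon, went from 0.139, 0.21 and 0.138 CPM to 0.436, 1.34 and 1.53 (log2 change 2.70, SE 0.72, adjusted p = 0.00131). Both ligands were thus higher in each set 2 library than in any NC library, at low levels.

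Among the sensors, IFIH1, which encodes MDA5, went from 0.208, 0 and 0.138 CPM to 6.03, 8.59 and 3.34 (log2 change 5.59, SE 0.52, adjusted p = 3.85e-11, and 6.26 without NC replicate 1). DDX58, which encodes RIG-I, went from 2.22, 3.50 and 2.76 CPM to 13, 16.6 and 13 (log2 change 2.33), and the related DHX58 rose by 1.49. No NC library overlapped with a set 2 library for these sensors. The 75.9% of all genes tested that passed is a share of calls, not of genes without overlap. MAVS, the adaptor on mitochondria, fell by 0.66 on the log2 scale, and EIF2AK2, the kinase PKR that stops translation on double-stranded RNA, fell by 0.44. ADAR, which edits double-stranded RNA and shields it from the sensors, fell from 331 to 337 CPM in NC to 136 to 152 CPM in set 2 (log2 change -1.21, adjusted p = 6.35e-20).

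The factors went in different directions. IRF3, which acts directly below the sensors, went from 68.1, 63.0 and 70.4 CPM to 208.7, 156.7 and 201.5 (log2 change 1.49, SE 0.08, adjusted p = 2.06e-17). IRF9 went the other way, from 3.89, 4.76 and 4.15 CPM to 0.291, 0.563 and 0.145 (log2 change -3.64, SE 0.36, adjusted p = 2.08e-10, and -4.24 without set 2 replicate 2). STAT2 stood at 56.3, 54.1 and 54.8 CPM in NC and at 18.1, 23.8 and 25.4 in set 2 (log2 change -1.29). IRF9 and STAT2, which carry the signal of secreted interferon together, were thus lower in every set 2 library than in any NC library. IRF7, an amplifier of the response, fell by 1.51 on the log2 scale, and USP18, which encodes a protease that shuts the receptor off, fell by 1.77.

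Several targets that IRF3 can switch on directly rose from low levels. ISG15, a ubiquitin-like protein, went from 3.89, 5.60 and 5.39 CPM to 186.9, 172.0 and 192.2 (log2 change 5.21, SE 0.10, adjusted p = 3.92e-27). IFIT1, IFIT2 and IFIT3, whose proteins bind foreign RNA or each other, rose by 5.00, 7.81 and 5.58 on the log2 scale. OASL had 3 counts in NC and 1029 in set 2, a ratio per scaled depth of 354.8 (exact 95% interval 121.1 to 1723, counting error only). RSAD2, which encodes viperin, had 1 count against 28 (ratio 29.0, interval 4.79 to 1184). IFI44, IFI35 and IFI27 also had positive log2 changes, of 5.12, 2.26 and 2.02, in a list where 9 of 40 tested genes fell. Other targets did not follow: OAS3 fell by 1.43 on the log2 scale, and MX1 (log2 change 1.01, adjusted p = 0.128), IFITM1, HERC6, DDX60, PARP9 and ZC3HAV1 did not pass. MX1 and PARP9 passed without set 2 replicate 2 (log2 changes 1.41 and 0.80, adjusted p = 0.032 and 0.00176), as did IFITM1 without replicate 3 (0.26, adjusted p = 0.0436). With upper-quartile scaling PARP9 passed (adjusted p = 0.0295), and with total-count scaling HERC6 was lower (log2 change -0.39, adjusted p = 0.0435).

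**Figure D2:**
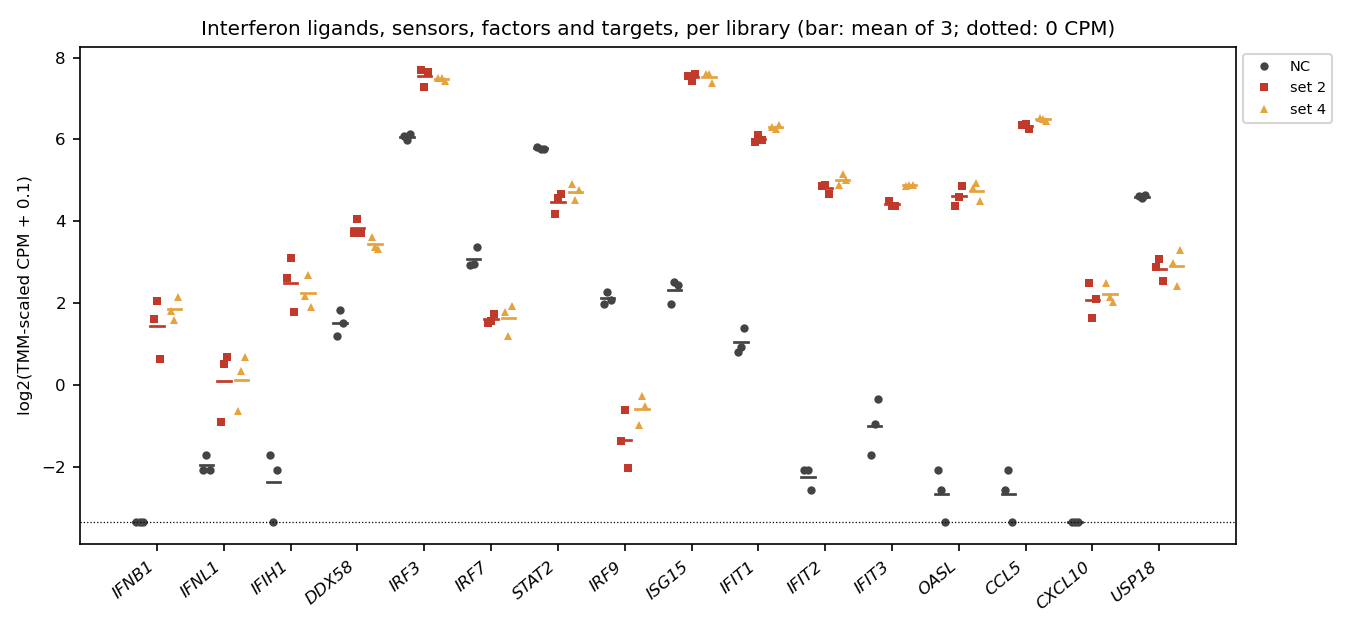
Points are single libraries of NC, set 2 and set 4, and bars are means of 3, on a log2 axis of TMM-scaled CPM with 0.1 added; the dotted line is 0 CPM. IFNB1 and CXCL10 lie at 0 CPM in NC and set 2 lies close to set 4 for most genes, while IRF9, STAT2, IRF7 and USP18 are lower in both hairpin sets than in NC.

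Chemokines and NF-kB targets held the largest rise that could be measured in a list. CCL5, a chemokine that draws T cells, had 3 counts in NC and 3361 in set 2, where it stood at 81.7, 83.7 and 76.1 CPM (ratio 1159, exact 95% interval 396.2 to 5623). CXCL10 had 0 counts against 178, at least 61.4-fold higher, and CXCL8 0 against 35, at least 12.1-fold higher. TNF had 3 counts against 49 (ratio 16.9, interval 5.45 to 84.8). NFKBIA, the inhibitor that NF-kB itself induces, went from 15.3, 15.5 and 16.6 CPM to 63.7, 62.0 and 62.6 (log2 change 1.99, SE 0.08, adjusted p = 7.02e-20). REL, a subunit of the factor, went from 14.6, 15.3 and 14.2 CPM to 2.54, 1.55 and 2.03 (log2 change -2.85), and TRAF1 and IER3 fell by 1.91 and 1.33. Of 32 genes on the list, 24 were tested, 14 rose, 5 fell and 5 did not pass, with a median of 0.55; IL6, IL1A and IL1B were among the 8 with too few counts.

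Class I antigen presentation genes, which load and show peptides at the cell surface, changed unevenly. Of 20 tested, 13 rose, 4 fell and 3 did not pass, with a median of 0.41. HLA-B, which encodes a presenting heavy chain, and B2M, which encodes its light chain, rose by 0.47 and 0.45 on the log2 scale. The peptidase gene ERAP2 and the immunoproteasome gene PSMB9 rose by 2.43 and 2.29. TAP1, a subunit of the peptide transporter, went from 34.3, 39.9 and 46.4 CPM to 10.2, 11.1 and 7.34 (log2 change -2.08, SE 0.13, adjusted p = 2.09e-15).

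Genes of the protein synthesis and energy machinery moved up as groups, with a few members going far in the other direction. All 79 cytosolic ribosomal protein genes were tested, 75 rose, 4 fell, and the median log2 change was 1.25. RPS29 went from 282, 271 and 256 CPM to 1185, 1442 and 1435 (log2 change 2.33, SE 0.07), and RPL38 and RPL36 rose by 2.23 and 2.13. RPL17 was the clearest exception, going from 59.4, 63.2 and 61.0 CPM to 10.9, 10.3 and 9.88 (log2 change -2.56, SE 0.11, adjusted p = 1.53e-19). RPL36A also fell, by 0.56. Ribosomal protein genes have many processed copies in the genome, so how the authors' counting shared such reads could affect single members.

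Of 50 mitochondrial ribosomal protein genes, 41 rose, 4 fell and 5 did not pass (median 1.21). MRPL41 rose by 2.47 on the log2 scale, and MRPS24 dropped from 54 counts to 2, a ratio of 26.1 (interval 6.88 to 221.0). Of 46 nuclear genes of the respiratory chain, 35 rose, 8 fell and 3 did not pass (median 1.29). ATP5F1E, a small subunit of the ATP synthase, rose by 2.61 and NDUFA1 of complex I by 2.38, whereas the complex I genes NDUFV2 and NDUFA13 fell by 2.10 and 1.66.

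Transcripts of the mitochondrial genome split by gene. Of 15 tested, 9 rose and 6 fell, with a median of 0.61. MT-ND3 went from 204.6, 191.1 and 190.5 CPM to 1528, 1427 and 1523 (log2 change 2.93, SE 0.05, adjusted p = 8.05e-28), and MT-CO2 and MT-CO3 rose by 2.43 and 1.82. MT-ND4L, MT-ND5 and MT-ND4 fell by 1.80, 1.13 and 0.88. These transcripts are cut from the same long precursors, and MT-ND3 and MT-ND4L, which lie near each other on it, moved in opposite directions.

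Translation factors were divided, with 18 of 33 tested genes higher and 15 lower (median 0.31). EIF5B, which joins the ribosomal subunits, rose from 143 to 156 CPM to 712 to 813 CPM (log2 change 2.34, SE 0.06). EIF4A1, the helicase that opens the 5′ ends of messenger RNAs, went from 109, 110 and 112 CPM to 2.83, 1.06 and 1.74 (log2 change -5.88, SE 0.13, adjusted p = 5.51e-26). Its relative EIF4A2 fell by 1.94 and EIF3A by 1.83. Among 20 aminoacyl-tRNA synthetase genes, 8 rose, 8 fell and 4 did not pass (median 0.02), with CARS highest at 1.37. The sign of that median depended on the scaling, at -0.003 with RLE and -0.175 with total-count scaling.

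Proteasome subunits rose in 24 of 31 cases, with 4 lower, 3 not passing and a median of 0.92. PSMB3 rose by 1.82 on the log2 scale and PSMA1 by 1.75, whereas the base ATPase gene PSMC1 fell by 1.93 and PSMA6 by 1.16. Splicing factor genes fell into opposite groups: 24 of 47 rose, 20 fell and 3 did not pass (median 0.29). Small core proteins of the splicing particles, SNRPD3, SNRPE and SNRPD1, rose by 1.81, 1.68 and 1.65. HNRNPH1 fell most, by 1.84, and the large proteins PRPF8 and SNRNP200 fell by 1.78 and 1.54. Size did not sort all members, since the small splicing factor gene U2AF1 had a log2 change of -1.05.

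Stress pathways did not move as units. The integrated stress response, in which ATF4 raises genes for amino acid supply when translation is slowed, had 16 of 28 genes higher, 10 lower and 2 not passing (median 0.31). ATF4 stood at 742, 713 and 740 CPM in NC and at 1958, 2190 and 2105 in set 2 (log2 change 1.51, SE 0.04, adjusted p = 9.74e-25). NUPR1 went from 1.46, 1.26 and 0.553 CPM to 16.7, 15.3 and 14.7 (log2 change 3.83), and CHAC1, which breaks down glutathione, rose by 2.92. ASNS, the asparagine synthetase gene that ATF4 is known to switch on, went from 12.3, 14.5 and 15.0 CPM to 1.67, 1.34 and 0.944 (log2 change -3.39, SE 0.23, adjusted p = 2.29e-14), and DDIT4 and ATF3 fell by 2.01 and 1.35. High and low groups did not overlap for any of these genes. The share of all genes without such overlap is not given here, and 75.9% of all genes tested passed.

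Of 25 endoplasmic reticulum chaperone genes, 10 rose, 12 fell and 3 did not pass (median -0.20). HSPA5, the main chaperone of this compartment, went from 9810, 9600 and 9761 CPM to 1199, 1299 and 1255 (log2 change -2.96, SE 0.03, adjusted p = 9.33e-34). PDIA6 and HYOU1 fell by 2.33 and 2.32, and the small translocon gene SEC61B rose by 1.77. Among 27 cytosolic heat shock and chaperonin genes, 11 rose, 14 fell and 2 did not pass (median -0.16). HSPA6, a strictly inducible heat shock gene, went from 0.486, 0.98 and 0.415 CPM to 8.50, 9.93 and 11.3 (log2 change 3.97, SE 0.32, adjusted p = 2.22e-12), while HSPA1A, which is also inducible, fell by 2.45. HSPA1A can share reads with its near-identical copy HSPA1B and is uncertain.

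Antioxidant genes of the NRF2, glutathione and thioredoxin systems rose in 22 of 33 cases, with 9 lower, 2 not passing and a median of 0.46. NQO1, a classic NRF2 target, went from 2.85, 3.01 and 4.35 CPM to 13.5, 16.3 and 14 (log2 change 2.10), and GSTP1 and TXN rose by 1.74 and 1.64. SRXN1, another NRF2 target, went the other way, from 4.09, 4.34 and 4.15 CPM to 0.436, 0 and 0 (log2 change -4.79, SE 0.49, adjusted p = 4.31e-10).

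Disulfidptosis, the theme of the series' title, is a form of cell death in which cystine taken up through SLC7A11 without enough glucose leaves actin cytoskeleton proteins cross-linked. Of 29 genes tied to it, 11 rose, 17 fell and 1 did not pass (median -0.47). SLC7A11, the cystine carrier, stood at 7.29, 6.58 and 6.43 CPM in NC and at 16.8, 18.9 and 11.6 in set 2 (log2 change 1.22, SE 0.16, adjusted p = 3.23e-08), and its partner SLC3A2 rose by 1.59. NCKAP1, CYFIP1 and WASF2, which form the WAVE complex that branches actin, fell by 1.19, 1.52 and 1.33, while BRK1, the smallest member of that complex, rose by 1.07. Large actin-binding genes fell, among them TLN1 by 2.07, MYH9 by 1.66 and FLNA by 1.37, and the small myosin light chain gene MYL6 rose by 1.90. GYS1, a glycogen synthase gene, fell by 0.47.

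Sterol and fatty acid synthesis genes, which SREBP factors switch on when cell sterols are low, fell in 18 of 32 cases, with 10 higher and 4 not passing (median -0.48). HMGCS1, at the entry of the sterol pathway, went from 203.5, 198.1 and 187.4 CPM to 12.5, 10.8 and 10.6 (log2 change -4.12, SE 0.07, adjusted p = 2.48e-28). For CYP51A1, the lanosterol demethylase, 512 reads were counted in NC and 0 in set 2, which makes it at least 165-fold lower. SQLE, INSIG1 and SREBF2 fell by 1.70, 1.65 and 1.23. Other enzymes of the same route rose: TM7SF2 by 2.51, PMVK by 2.03 and EBP by 1.68.

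Glycolysis and hypoxia genes fell in 26 of 34 cases, with 6 higher and 2 not passing (median -0.47). ALDOA went from 34.7, 35.8 and 34.6 CPM to 5.09, 3.73 and 4.14 (log2 change -3.02, SE 0.13, adjusted p = 4.49e-19), and PFKFB3 and PFKM fell by 1.70 and 1.37. TPI1 rose by 0.96, and the hypoxia-induced ANGPTL4 and CA9 rose by 2.39 and 1.96 from under 1 CPM. The glucose carrier gene SLC2A1 did not pass (log2 change 0.09, adjusted p = 0.132), except with upper-quartile scaling (0.17, adjusted p = 0.00778).

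Among DNA replication and nucleotide genes, 23 of 40 fell, 14 rose and 3 did not pass (median -0.28). MCM2, part of the replicative helicase, went from 359, 356 and 382 CPM to 25.9, 15.6 and 15.5 (log2 change -4.27, SE 0.11, adjusted p = 1.12e-24). CLSPN and TYMS fell by 3.35 and 3.28, whereas TK1 and POLA2 rose by 1.99 and 1.96. Homologous recombination and Fanconi genes fell in 20 of 32 cases and rose in 8 (median -0.62), with RAD54L lower by a log2 change of -2.30 and RAD51C higher at 1.65. Of 38 mitotic genes, 21 fell and 13 rose (median -0.24), INCENP by -2.46 and TOP2A by -1.90 among the falls. Of 26 p53 targets and CDK inhibitors, 9 rose and 13 fell (median -0.21), with BAX at 1.73, CDKN1A at 0.30 and XPC at -2.17. CDKN1A did not pass with total-count scaling (log2 change 0.11, adjusted p = 0.214).

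Membrane transport and matrix genes were mostly lower. Of 35 COPI, COPII and Golgi genes, 24 fell, 7 rose and 4 did not pass (median -0.46). SEC24C, a cargo adaptor of COPII vesicles, went from 50.8, 51.4 and 54.0 CPM to 0.872, 1.27 and 0.363 (log2 change -5.94, SE 0.18, adjusted p = 4.04e-23). Collagen, matrix and mesenchymal genes had 29 of 34 tested members lower, 4 higher and 1 not passing (median -0.91). FN1 went from 170.9, 174.1 and 177.3 CPM to 26.2, 23.5 and 22.8 (log2 change -2.85), ITGB1 fell by 2.72, and ITGB3 had 34 counts against 2 (ratio 16.4, interval 4.21 to 141.2). SNAI2, VIM and the protease inhibitor gene TIMP1 rose by 1.73, 0.82 and 1.66. Lysosome and proton pump genes rose in 20 of 33 cases and fell in 7 (median 0.39), with ATP6V0E1 at 2.11 and NPC1, the cholesterol exporter, at -1.83.

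The remaining lists were small or sparse. Of 19 tested histone genes, 12 rose and 1, HIST2H2BE, fell (median 0.78), in libraries selected for polyadenylated RNA. Of 23 host genes of small nucleolar RNAs, 14 rose and 9 fell (median 0.80), with SNHG9 at 2.85 and SNHG1 at -2.03. Metallothionein and zinc genes had 2 of 7 higher and 4 lower, with MT1F at 1.89. Keratinocyte differentiation genes had 4 of 20 tested, of which 1 rose, 1 fell and 2 did not pass. KRT10 rose by 1.96 and GRHL1 fell by 0.54.

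Markers of other cell types moved as well, and their part in the results above was not tested. The 14 epithelial and luminal keratin markers summed to 154 to 156 CPM in the NC libraries and to 336 to 370 in set 2. KRT18 and KRT8, which made up most of the sum in set 2, rose by 1.82 and 1.04. Of the 9 epithelial markers tested, 7 rose and 1, CDH1, fell, by 0.75 on the log2 scale. The 13 basal markers summed to 143 to 145 CPM and to 103 to 114, a sum that FOXC1 dominates. Of the 7 that were tested, 3 rose, 3 fell and 1 did not pass, and their median log2 change was 0.42, opposite in sign to the change of the sum. Neural markers, 9 in all, summed to 493 to 505 CPM and to 243 to 253, and NEFM and NEFL fell by 1.78 and 1.65 while SYP rose by 1.43. Fibroblast markers summed to 47.4 to 50.3 CPM and to 31.7 to 33.8, a sum that COL1A1 dominates, with COL1A2 and FAP at 0 in both groups. Of the 3 fibroblast markers tested, 0 rose, 1, COL1A1, fell and 2 did not pass, with a median of -0.036. The 12 leukocyte markers summed to 7.74 to 9.26 CPM and to 16.9 to 18.0. CD14 rose from 0.278, 0.35 and 0.276 CPM to 3.78, 6.34 and 5.52, while PTPRC, CD3E, MS4A1 and FCGR3A were at 0. Of the 5 leukocyte markers tested, 3 rose and 1, NKG7, fell, by 1.43 on the log2 scale. The 7 endothelial markers summed to 3.11 to 4.32 CPM and to 5.72 to 7.10. Of the 3 endothelial markers tested, 1 rose, 1 fell and 1 did not pass. Their median log2 change was -0.325, opposite in sign to the change of the sum.

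Falls of more than 16-fold were far more frequent than rises of that size: 762 genes were lower and 104 higher. By name, 38.1% of 189 small RNA genes, 5 of 25 readthrough genes, 17.0% of 681 pseudogenes and 12.8% of 2847 clone-type names were over 16-fold lower, against 1.06% of 14472 genes with other names and 4.0% of all. Of 13674 genes with at least 100 counts in NC, 53 had none in set 2. In the other direction 4 of 13658 did.

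DDX47, a helicase of ribosome assembly, went from 18.0, 18.2 and 15.3 CPM to 0, 0.0704 and 0.291 (log2 change -7.06, SE 0.33, adjusted p = 4.30e-18). CCNK, the cyclin partner of the transcription kinases CDK12 and CDK13, went from 17.9, 18.5 and 17.1 CPM to 0.291, 0.211 and 0.0726 (log2 change -6.48). HSPG2, the basement membrane protein perlecan, fell from 68.7 to 80.3 CPM to 1.16 to 2.18 CPM (log2 change -5.58). These genes were picked for large falls without overlap between NC and set 2, so their separation follows from the choice. The lactate carrier gene SLC16A8, the synaptic scaffold gene LRRC7, TMEFF1 and the disulfide isomerase gene TXNDC5 fell by 5.57, 5.46, 5.12 and 4.93, and NCR3LG1, a ligand of natural killer cells, by 4.93. STPG3, the microRNA gene MIR621 and the readthrough gene JMJD7-PLA2G4B fell by 6.11, 5.34 and 6.18. All set 2 counts of SLC16A8 lay in replicate 2 and all those of MIR621 in replicate 1. Without replicate 1, JMJD7-PLA2G4B and TXNDC5 fell by 7.72 and 6.07, and without replicate 3 DDX47 and STPG3 fell by 8.61 and 6.80.

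**Figure D3:**
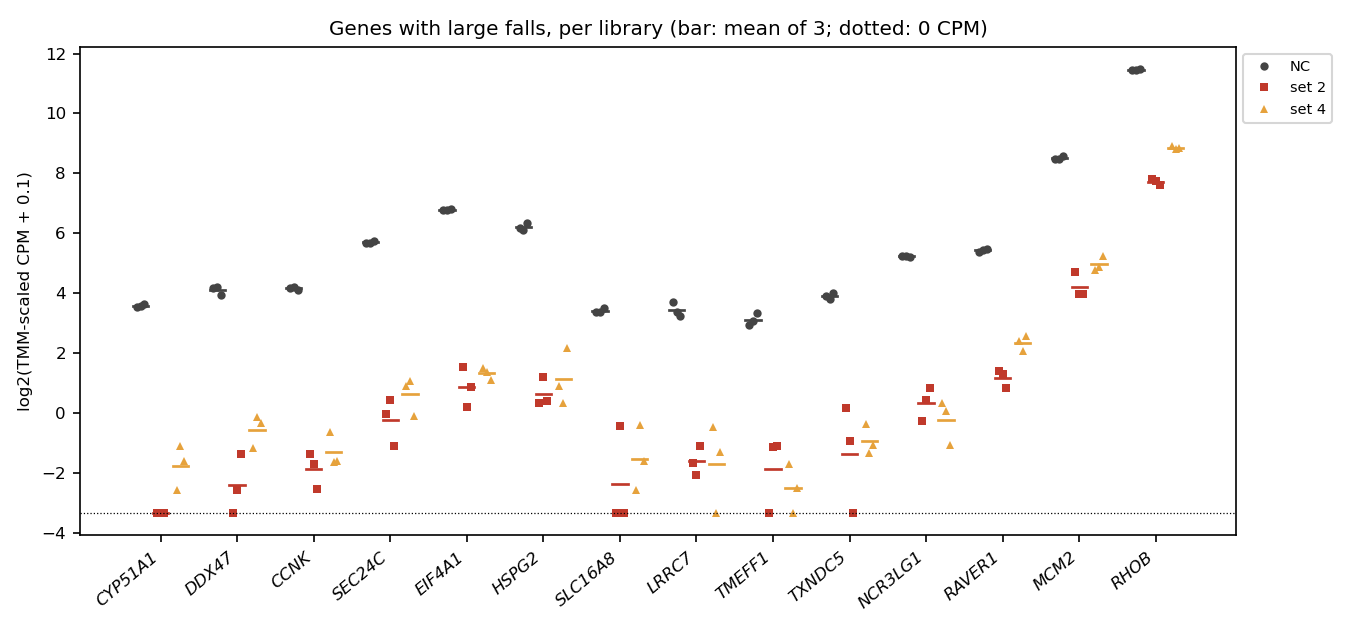
Points are single libraries of NC, set 2 and set 4, and bars are means of 3, on a log2 axis of TMM-scaled CPM with 0.1 added; the dotted line is 0 CPM. Each of the 14 genes is lower in both hairpin sets than in every NC library, and RAVER1, MCM2 and RHOB are lower in set 2 than in set 4.

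Outside the lists, the largest rises included DHRS2, a short-chain dehydrogenase, which went from 3.96, 4.48 and 4.49 CPM to 103.7, 108.7 and 111.4 (log2 change 4.64, SE 0.09, adjusted p = 2.09e-27). KLKP1, a transcribed kallikrein pseudogene, went from 0.0694, 0.49 and 0.415 CPM to 22.5, 18.7 and 24.3 (log2 change 6.03). BOLA2B, of an iron-handling family with near-identical copies, rested on 1 library, with 211.7, 6.06 and 6.97 CPM in set 2 against 0.972 to 1.11 in NC (log2 change 6.15, SE 0.94, adjusted p = 8.12e-07). Without replicate 1 its log2 change was 2.63 (adjusted p = 1.07e-09). RN7SL2, a copy of the signal recognition particle RNA, also varied, with 331.2, 96.6 and 302.7 CPM in set 2 against 19.2 to 24.4 in NC. The non-coding genes MAFG-DT, MAFA-AS1 and WEE2-AS1 rose by 3.97, 3.69 and 3.43. BOLA2B and RN7SL2 can share reads with near-identical copies and are uncertain.

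The change also ran with transcript length, which was taken from the mouse gene of the same symbol for 12716 genes. In the shortest of 5 equal groups (median 1332 nt) the median log2 change was 0.84, and 70.5% of genes rose. In the middle group (median 3173 nt) it was -0.09, and in the longest (median 6808 nt) it was -0.67, with 12% of genes higher and 69.5% lower. Spearman's rho between length and change was -0.47 across these genes, which are not independent replicates, and it was -0.07 for set 2 against set 4. Ribosomal protein genes are short (median 910 nt), and after a smooth trend of change on length was subtracted their median went from 1.26 to 0.06, over 78 genes. That of the respiratory chain genes went from 1.28 to 0.01, and that of the interferon list from 1.07 to 0.72 over 34 genes. For matrix genes it went from -0.91 to -0.77, for Golgi transport genes from -0.46 to -0.66 and for mitochondrial genome transcripts from 0.58 to -0.79. Of 151 genes named here with such a length, 58 moved by more than 1.5-fold, and among those past the threshold B2M, CDKN1A and FOXC1 changed sign, to -0.80, -0.02 and 0.10. Over the 14 of 20 class I genes with a length the median went from 0.26 to -0.08, but at 70.0% of the tested members that check is void. What made the change run with length was not tested.

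**Figure D4:**
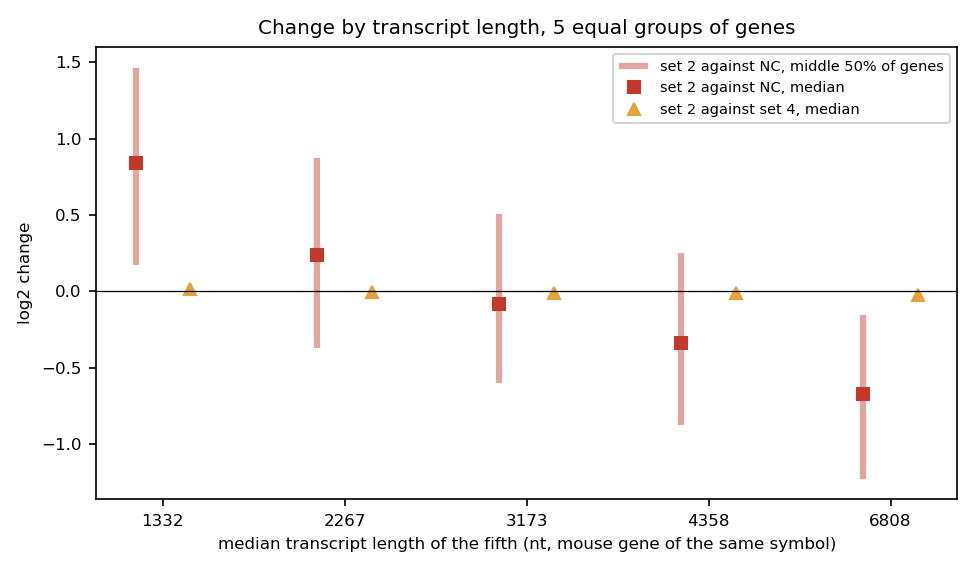
Median log2 change in 5 equal groups of genes ordered by transcript length (horizontal axis, median length in nt), for set 2 against NC (squares, with the middle 50% of genes as bars) and for set 2 against set 4 (triangles). Against NC the medians go down from 0.84 to -0.67, and against set 4 they stay between -0.03 and 0.01.

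Set 2 was then compared with set 4, which lies in the same table and targets the same gene. Of 19051 genes, 372 were higher in set 2 (1.95%) and 632 were lower (3.32%), with a median log2 difference of -0.004. With only these 2 groups in the fit, 44 were higher and 85 lower. Leaving out the set 4 library of the column ending in 2 or in 3 left 235 and 211 higher. In the fit of all 15 libraries, 12 of 32 sterol and fatty acid genes were lower in set 2 and 0 were higher. List counts are not given for the fit of only these 2 groups. HMGCS1 stood at 21.9, 22.3 and 25 CPM in set 4, above 10.6 to 12.5 in set 2 (log2 difference -1.03, SE 0.09, adjusted p = 1.91e-09). INSIG1, IDI1 and FDFT1 were lower by log2 differences of -0.61, -0.40 and -0.35, so the fall of HMGCS1, INSIG1 and FDFT1 against NC went further in set 2.

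RHOB, a small GTPase of endosomes and actin, stood at 2771, 2783 and 2854 CPM in NC and at 222.8, 216.9 and 195.9 in set 2 (log2 change -3.73, SE 0.04, adjusted p = 5.15e-33). It lay between them in set 4, at 484.0, 450.2 and 462.6 CPM (set 2 against set 4 log2 difference -1.14, SE 0.04, adjusted p = 2.16e-18). RAVER1 and MCM2 were also lower in set 2 than in set 4, by -1.19 and -0.73, and RAVER1 did not pass with only these 2 groups in the fit (adjusted p = 0.0678). Of 15 mitochondrial genome transcripts, 11 were higher in set 2 and 0 were lower in the fit of all libraries. MT-ND6 (0.44) and MT-CYB (0.37) led them. The mitochondrial genome took 3.76% to 4.01% of counts in set 2 and 3.27% to 3.57% in set 4. C2orf48 was higher in set 2 by 1.02, but did not pass with only these 2 groups in the fit (adjusted p = 0.0528). Of 40 interferon genes, 0 were higher in set 2 and 2 were lower, IFIT3 by -0.46 and IFIT1 by -0.29. IFIT3 did not pass when the set 4 library of the column ending in 1, 2 or 3 was left out (adjusted p = 0.0513, 0.0564 and 0.0568). With only these 2 groups in the fit, IFIT3 and IFIT1 did not pass either (adjusted p = 0.051 and 0.119). IFIT1 also did not pass without each of those columns (0.0799, 0.0537 and 0.107), nor without set 2 replicate 1 or 3 (0.0803 and 0.0703).

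**Figure D5:**
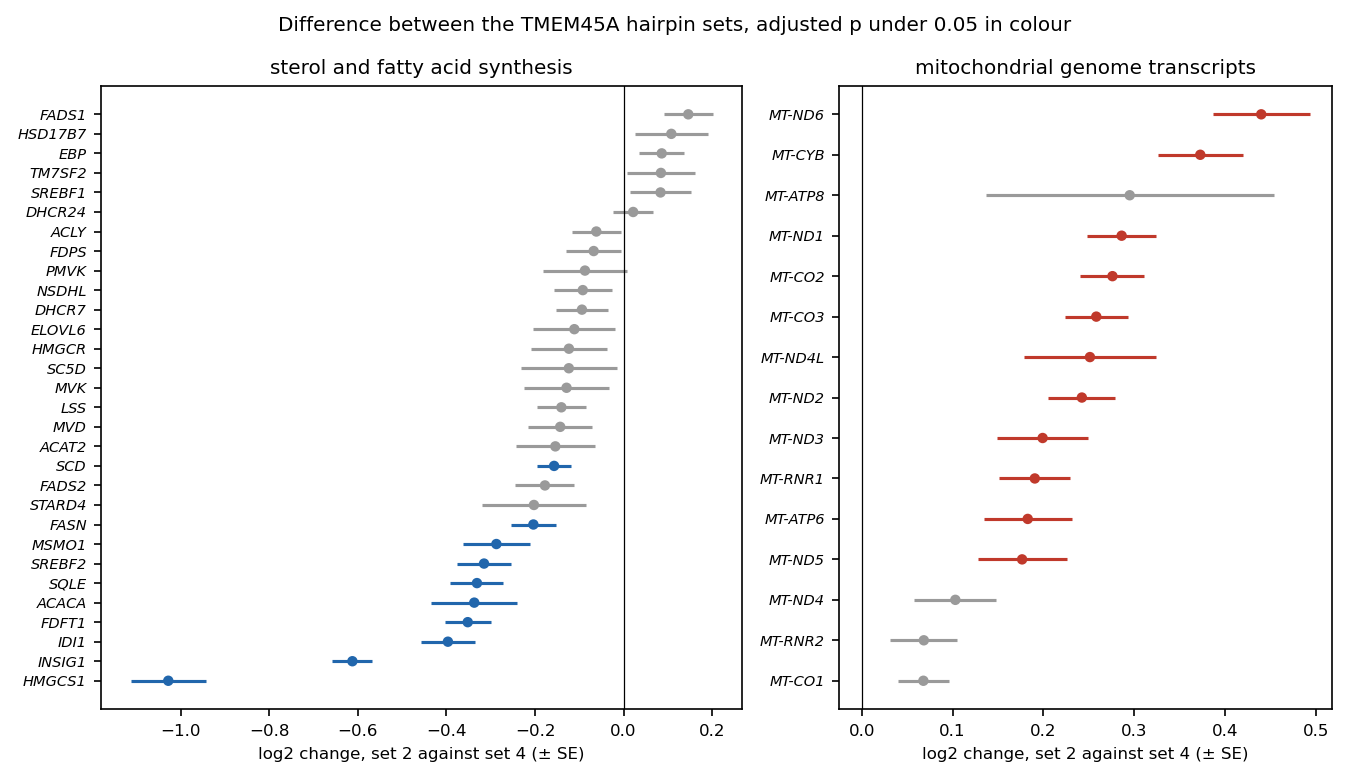
Log2 difference of set 2 from set 4 (horizontal axis, points with SE bars) for tested sterol and fatty acid genes, CYP51A1 with its 0 counts in set 2 left out (left), and for the mitochondrial genome transcripts (right). Coloured genes passed an adjusted p of 0.05: 10 of the 12 lower sterol genes are drawn and 11 mitochondrial transcripts are higher.

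Against the 6 SHCBP1 hairpin libraries, which share the table of NC, set 2 had 6450 genes higher and 7960 lower. The median of the NF-kB and chemokine list was 0.07 here and 0.55 against NC, and that of histones 0.18 and 0.78. Cytosolic ribosomal protein genes had 1.57 here and 1.25 against NC, and respiratory chain genes 1.43 and 1.29. Both lay above the interferon list with this reference, at 1.17 here and 1.36 against NC. ISG15, IFIT2 and CCL5 were higher by 4.76, 5.90 and 9.24 on the log2 scale, and HMGCS1 and EIF4A1 were lower by -3.41 and -5.06. Of 175 genes named here, 49 moved by more than 1.5-fold with this reference, FN1 (-2.85 against NC and -1.92 here) and HSPA6 (3.97 and 2.10) among them. Some changes were much smaller: CHAC1 was 2.92 against NC and 0.18 here, DHRS2 4.64 and 1.44, KLKP1 6.03 and 2.64, CD14 4.08 and 1.79, and IRF7 -1.51 and -0.50. CDKN1A (0.14, adjusted p = 0.0756) and CHAC1 (adjusted p = 0.201) did not pass against this reference, whereas IFITM1 did (0.32, adjusted p = 0.00586). IFNL1 and RN7SL2 were higher by 4.05 and 5.01, against 2.70 and 3.50 with NC as reference.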

How the data were processed

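Messenger RNA was selected with poly-T beads and made into paired-end libraries with a kit that does not mark strand, per the labels' protocols. The authors deposited read counts per gene symbol in 2 tables. The sources used here state neither aligner nor counter. As build, mm10 is given in the submitters' processing notes, although the symbols are human. Of 58735 rows in each table, 1768 under 200 repeated or date-like names were left out, and 56967 were joined by symbol.

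All 15 libraries entered 1 edgeR 4.0.16 quasi-likelihood fit (R 4.3.3) of 5 group means, with TMM scaling, filterByExpr (count minimum 10, total 15) and Benjamini-Hochberg adjustment over all genes, threshold 0.05. The procedure was tested on simulated data in which few genes changed, so that test does not cover a change as broad as the one against NC. SE is the log2 change over the square root of F. Folds against 0 counts use 3 counts over the group as floor, and exact 95% intervals cover counting error only. Lengths came from GENCODE vM21 mouse transcripts, with a lowess trend of span 0.3.

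The members and the 35 gene lists (29 pathways, 6 of markers) were chosen with earlier results of these data known. Named genes were the target, its paralog and SHCBP1, up to 3 each way per list, the 15 largest each way against NC and the 8 largest against set 4, from mean log2 CPM of 2 without overlap between groups. Others were named for their role after their values were seen, as were those listed as not passing, and some that the rule names are not described. Alternatives were other scalings, filters, DESeq2 1.42.0, fewer groups, a replicate block, another reference and each library left out. Some genes of the lists are counted but not reported here by name.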

Additional observations from a re-analysis of the deposited data

Results flagged for a closer look

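Genes named above whose change against the control hairpin NC differed between set 2 and set 4 in a direct test of both sets were set apart here, since both hairpin sets target TMEM45A. All p-values in this paragraph are from edgeR's quasi-likelihood test with Benjamini-Hochberg adjustment over all genes, and all differences are set 2 minus set 4 on the log2 scale, over 3 libraries each. DHRS2 rose further in set 2 (0.57, adjusted p = 4.28e-07), at 103.7, 108.7 and 111.4 CPM against 72.6, 74.4 and 71.2 in set 4. HSPA6 (1.18, adjusted p = 0.00361) and KLKP1 (0.88, adjusted p = 0.00323) also rose further, each with all 3 set 2 libraries above all 3 of set 4. NUPR1 (0.71, adjusted p = 0.0151) and WEE2-AS1 (0.56, adjusted p = 0.0233) did so too. NUPR1 did not pass without the set 4 column ending in 1 (adjusted p = 0.0683). WEE2-AS1 did not pass without that column, the column ending in 2 or in 3, or set 2 replicate 3 (adjusted p = 0.0838, 0.0556, 0.0501 and 0.0839), nor with only these 2 groups in the fit (0.0747).

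STPG3 fell further in set 2 (-2.82, adjusted p = 0.00238), with 5 counts against 37 in set 4. DDX47 had 5 counts against 25 (-2.26, adjusted p = 0.0298), and -3.80 without set 2 replicate 3. It did not pass without set 2 replicate 1 or 2 or the set 4 column ending in 2 or 3 (adjusted p = 0.1, 0.0762, 0.109 and 0.0807). CYP51A1 had 0 counts in set 2 and 9 in set 4 (-4.75, a fitted value that depends on the prior count, adjusted p = 0.0215), and it did not pass without the column ending in 2 (adjusted p = 0.0948). IFIT1 (-0.29, adjusted p = 0.0325) and IFIT3 (-0.46, adjusted p = 0.0212) rose less in set 2, with the losses of their calls given above. BOLA2B (3.04, adjusted p = 0.00665) rested on set 2 replicate 1, without which the difference was -0.48 (adjusted p = 0.223), and it did not pass with only these 2 groups in the fit (adjusted p = 0.0688).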

How the results depend on the processing

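Across the alternatives run, the counts against NC moved by less than 1.5 times. They were 5769 higher and 8714 lower with total-count scaling, 7308 and 7132 with upper-quartile scaling, 7149 and 8967 without a filter and 6726 and 7678 with DESeq2. Leaving out 1 library gave 6605 to 6877 higher and 7394 to 7700 lower. Replicate numbers did not pair the libraries: deviations of same-numbered NC and set 2 libraries correlated at 0.005, 0.038 and 0.013 across genes, and only the second pair was each other's best match. With a replicate block and only the groups compared, 6231 genes were higher and 6805 lower.

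Against set 4, a fit of only these groups left 44 genes higher and 85 lower, and leaving out 1 library gave 211 to 531 higher and 459 to 801 lower. The cause was not tested. The median of the aminoacyl-tRNA synthetase genes was negative with RLE scaling (-0.003), total-count scaling (-0.175), DESeq2 (-0.003) and no filter (-0.023), and ran from -0.012 to 0.039 with 1 library left out.

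After the length trend was subtracted, in lists with lengths for at least 80% of tested members, medians turned negative for mitochondrial genome transcripts (-0.791), histones (-0.683), translation factors (-0.140), synthetases (-0.049) and splicing factors (-0.018), as did B2M (-0.802) and CDKN1A (-0.018), and FOXC1 turned positive (0.104). BOLA2B against set 4 ran from -0.481 to 3.587 with 1 library left out. Depth limits genes near 3 counts, such as OASL, RSAD2 and TNF in NC.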
